A study of Mus musculus with 10 samples.

Results

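The immunoglobulin heavy chain variable genes (Ighv) are the 107 rows, of 22548 genes in the table of this study, whose gene name starts with Ighv. They were taken by name alone, and each library was described by its Ighv read count and by each gene's share of all Ighv reads. The libraries came from osteocytes, the cells embedded in bone matrix, of male C57BL/6 mice aged 8 weeks per the labels, with 1 library per mouse. In the MM group, the femurs of 5 mice had been injected with vk12598, a murine myeloma line derived from Vk*MYC mice, and the 5 No MM mice were controls without myeloma cells; no transgene or gene deletion is given for either group of hosts. Bone pieces were freed of marrow and digested in turn with collagenase and EDTA, so that the cells were enriched by digestion and not sorted by a marker. Mice are called by their label numbers, No MM 1 to No MM 5 and MM 6 to MM 10.

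A B cell joins 1 of many V genes to a D and a J segment to make its heavy chain, and all of its descendants keep that choice. A mixed population of B cells and plasma cells, the antibody-secreting cells of this lineage, therefore carries many V genes, whereas the progeny of a single cell carries one. Myeloma is a cancer of plasma cells, and the constant gene next to the rearranged V gene (Ighm, Ighg, Igha) sets the antibody class.

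The Ighv genes lie on the minus strand of chromosome 12 between 113578504 and 116000461, a span of 2422.0 kb, in the coordinates of the table. The genome build is not given in the sources used here. In GENCODE M21 (GRCm38), 98 members were found by identifier and 9 by symbol and overlap, and 35 had the same start and end there. They fall into 15 families by the number after Ighv, with 55 genes in Ighv1. In GENCODE M21, 103 members are annotated as IG_V_gene, and 5 are pseudogenes in either annotation. The median gene length in the table was 350 bases.

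Each of the 6 genes that led a library, and both other genes that were given with the rule (Ighv1-18 and Ighv1-66), has a germline sequence in GENCODE M21 (GRCm38), read here from its longest transcript. The last 294 bases of each transcript are shown 5′ to 3′, in which capitals mark the bases that differ from Ighv1-15 in a global alignment. Ighv1-15 is the reference because it led 4 of the 10 libraries. Their table coordinates are chr12:114657356-114657777 (Ighv1-15), chr12:115119748-115120180 (Ighv1-50), chr12:114746273-114746706 (Ighv1-22), chr12:114788372-114788805 (Ighv1-26), chr12:114682674-114683065 (Ighv1-18), chr12:115593110-115593543 (Ighv1-66), chr12:114479005-114479451 (Ighv10-1) and chr12:113948282-113948732 (Ighv4-1).
Ighv1-15: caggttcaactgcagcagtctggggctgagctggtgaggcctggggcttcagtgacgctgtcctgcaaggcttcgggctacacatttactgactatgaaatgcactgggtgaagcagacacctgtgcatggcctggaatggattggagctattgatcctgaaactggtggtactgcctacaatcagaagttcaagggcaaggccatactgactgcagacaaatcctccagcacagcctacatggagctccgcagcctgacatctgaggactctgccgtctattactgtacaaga
Ighv1-50: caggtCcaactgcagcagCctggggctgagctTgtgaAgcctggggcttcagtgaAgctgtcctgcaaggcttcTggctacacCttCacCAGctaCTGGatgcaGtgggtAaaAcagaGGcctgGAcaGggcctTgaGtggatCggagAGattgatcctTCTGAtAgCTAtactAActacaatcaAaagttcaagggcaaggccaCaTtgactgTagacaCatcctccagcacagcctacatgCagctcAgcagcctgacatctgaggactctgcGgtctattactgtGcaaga
Ighv1-22: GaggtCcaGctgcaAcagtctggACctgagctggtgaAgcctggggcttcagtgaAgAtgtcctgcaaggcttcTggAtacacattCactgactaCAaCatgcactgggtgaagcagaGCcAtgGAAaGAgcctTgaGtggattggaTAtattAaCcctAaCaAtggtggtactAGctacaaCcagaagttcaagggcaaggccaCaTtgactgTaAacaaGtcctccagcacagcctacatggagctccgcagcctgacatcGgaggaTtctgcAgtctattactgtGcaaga
Ighv1-26: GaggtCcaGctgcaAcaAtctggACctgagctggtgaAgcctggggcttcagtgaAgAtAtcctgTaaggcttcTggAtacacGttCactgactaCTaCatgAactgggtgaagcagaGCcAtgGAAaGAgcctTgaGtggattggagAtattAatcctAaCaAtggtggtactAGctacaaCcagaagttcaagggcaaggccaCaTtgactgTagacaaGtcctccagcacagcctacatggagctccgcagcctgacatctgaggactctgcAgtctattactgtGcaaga
Ighv1-18: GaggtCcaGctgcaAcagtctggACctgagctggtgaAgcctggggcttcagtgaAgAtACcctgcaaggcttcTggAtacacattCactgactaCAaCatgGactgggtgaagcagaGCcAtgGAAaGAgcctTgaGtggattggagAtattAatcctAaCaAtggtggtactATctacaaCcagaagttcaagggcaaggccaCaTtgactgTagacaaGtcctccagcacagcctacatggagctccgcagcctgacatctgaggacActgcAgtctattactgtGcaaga
Ighv1-66: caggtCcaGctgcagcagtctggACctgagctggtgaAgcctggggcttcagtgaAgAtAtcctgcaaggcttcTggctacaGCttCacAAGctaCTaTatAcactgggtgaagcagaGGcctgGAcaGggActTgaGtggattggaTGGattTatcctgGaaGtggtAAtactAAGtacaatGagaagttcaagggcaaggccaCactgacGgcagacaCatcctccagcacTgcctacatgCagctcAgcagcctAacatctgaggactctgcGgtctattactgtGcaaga
Ighv10-1: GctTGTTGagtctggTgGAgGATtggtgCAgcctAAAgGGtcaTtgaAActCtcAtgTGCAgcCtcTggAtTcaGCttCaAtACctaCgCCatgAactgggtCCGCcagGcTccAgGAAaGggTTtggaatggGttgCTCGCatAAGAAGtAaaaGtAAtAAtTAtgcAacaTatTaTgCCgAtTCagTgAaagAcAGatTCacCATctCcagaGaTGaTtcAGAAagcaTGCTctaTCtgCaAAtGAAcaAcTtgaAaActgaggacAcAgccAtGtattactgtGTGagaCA
Ighv4-1: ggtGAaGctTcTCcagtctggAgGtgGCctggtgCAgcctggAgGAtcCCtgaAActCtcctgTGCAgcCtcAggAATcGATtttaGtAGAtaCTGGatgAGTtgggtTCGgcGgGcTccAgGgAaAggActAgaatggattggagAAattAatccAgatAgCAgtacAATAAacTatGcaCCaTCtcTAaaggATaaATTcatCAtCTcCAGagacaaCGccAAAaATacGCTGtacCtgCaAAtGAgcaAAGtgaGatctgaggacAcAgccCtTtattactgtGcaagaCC

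The 5 other Ighv1 genes differed from Ighv1-15 at 43 to 48 of these bases, Ighv4-1 at 115 and Ighv10-1 at 128. The member closest to Ighv1-15 over the last 294 bases was Ighv1-23, at 98.3% identity. The median identity of a member to its closest relative was 95.27%, and 59 of 107 members were over 95% identical to another. With windows of the read length of 76 bases, 34 members shared no window with another member and 4 shared over 50% of theirs. Ighv1-15 shared 4.71% of its windows, Ighv10-1 4.93%, Ighv4-1 12.98% and Ighv1-50 34.92%. How reads that fit several V genes were counted is not given in the sources used here, so values of close relatives are uncertain. In the libraries led by Ighv1-15 at over 99%, Ighv1-23 had 80 reads (No MM 3) and 74 reads (No MM 4), against 4 to 10 in the other 8 libraries.

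Between 31099174 and 39466332 reads were counted on genes per library. No MM 3 and No MM 4 stood apart before any comparison, with 26.84% and 29.27% of all reads on immunoglobulin genes against 0.647% to 3.98% in the other 8. A list of 10 plasma cell markers (Sdc1, Igj, Xbp1 and others) summed to 9654.4 and 9675.5 CPM in these 2 libraries and to 618.5 to 1309.4 CPM in the other 8, where CPM, the unit of all levels given here, is the count scaled to library size with TMM factors. The 11 B cell markers summed to 196.0 to 447.7 CPM in No MM and 255.0 to 592.0 CPM in MM, and no marker of either list was at 0 in all libraries. The osteocyte genes Dmp1, Sost and Mepe were detected in every library, with the 6 osteocyte markers together between 308.0 and 2416.7 CPM. Ighv transcripts were therefore read in preparations that held B lineage RNA next to osteocyte RNA. In bulk RNA, fewer cells of a type and less RNA per cell cannot be told apart. The share of each cell type in the Ighv values was not tested.

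Ighv reads numbered 75931, 116010, 1058049, 1049811 and 18037 in No MM 1 to No MM 5. They numbered 26061, 46164, 28195, 35288 and 40878 in MM 6 to MM 10. As a share of all counted reads, this was 2.68% in No MM 3 and 2.75% in No MM 4, 0.0493% to 0.333% in the other No MM libraries, and 0.0746% to 0.139% in MM. After scaling, the summed level was 2892.2, 3266.0, 34184.6, 38101.6 and 441.9 CPM in No MM and 674.3, 1247.6, 666.2, 972.7 and 1063.6 CPM in MM. In No MM, 4 libraries lay above every MM library and No MM 5 lay below all of them. In log2 CPM the No MM mean was 12.45 ± 2.71 (SD, n = 5), the MM mean was 9.81 ± 0.40 (SD, n = 5), and the difference of -2.64 did not pass the exact permutation test (two-sided, p = 0.0556, 0.0794 adjusted over 5 comparisons of this kind). The smallest p that 5 against 5 mice allow is 0.00794. P-values here measure the spread between mice. The difference was -0.84 without No MM 3 and No MM 4 (exact permutation test, p = 0.25) and -3.55 without No MM 5 (exact permutation test, p = 0.0159).

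Part of this level came from 1 gene in each library. Once the leading gene of each library was removed, an alternative chosen after seeing the data, the other Ighv genes summed to 1050.9, 647.3, 321.7, 252.7 and 286.6 CPM in No MM and 576.4, 1073.8, 458.2, 646.0 and 594.7 CPM in MM. No MM 3 and No MM 4, highest in total, were then among the 3 lowest, and the groups overlapped. The difference turned to 0.56 on the log2 scale (exact permutation test, two-sided, p = 0.262). With Ighv1-15 alone left out of every library, the difference was -0.14 (exact permutation test, p = 0.873).

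**Figure D1:**
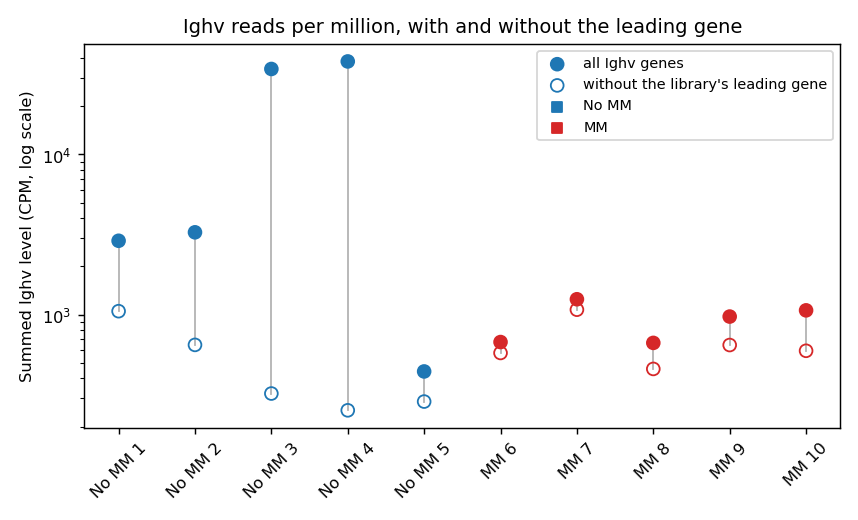
Summed Ighv level in each library on a log axis in CPM, for all 107 genes (filled points) and without that library's leading gene (open points), with No MM in blue and MM in red. The filled points span 441.9 to 38101.6 CPM in No MM and 666.2 to 1247.6 CPM in MM, whereas the open points span 252.7 to 1050.9 and 458.2 to 1073.8 CPM.

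In No MM 1, Ighv10-1 took 63.66% of the Ighv reads (95% Wilson interval 63.32% to 64.01%) and Ighv5-16 another 20.12%. In No MM 2, Ighv4-1, the only member of its family in the table, took 80.18% (79.95% to 80.41%), ahead of Ighv6-3 at 3.70%. Ighv1-15 took 99.06% (99.04% to 99.08%) in No MM 3 and 99.34% (99.32% to 99.35%) in No MM 4. No MM 5, with the fewest Ighv reads, was led by Ighv1-50 at 35.16% (34.46% to 35.86%), followed by Ighv6-3 at 11.89%. So 4 of the 5 No MM libraries had over 60% of their Ighv reads on a single V gene. No molecular identifiers were used, so that PCR copies count as reads and these intervals cover the counting error alone.

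In the myeloma-bearing mice, no gene took more than 44.09% of the Ighv reads. MM 6 was led by Ighv1-22 at 14.52% (14.09% to 14.95%), followed by Ighv14-4 at 11.03% and Ighv1-18 at 8.75%. In MM 7 the leader was Ighv1-50 at 13.94% (13.62% to 14.26%), followed by Ighv1-53 at 6.57%. Ighv1-26 led MM 8 at 31.22% (30.68% to 31.77%). Ighv1-15 led MM 9 at 33.59% (33.10% to 34.08%), with Ighv7-1 at 19.33%, and led MM 10 at 44.09% (43.61% to 44.57%), with Ighv1-18 at 25.58%. The 5 MM libraries thus had 4 different leaders. When reads were divided by gene length, the same gene led in 10 of 10 libraries and no leading share moved by more than 0.949 percentage points.

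**Figure D2:**
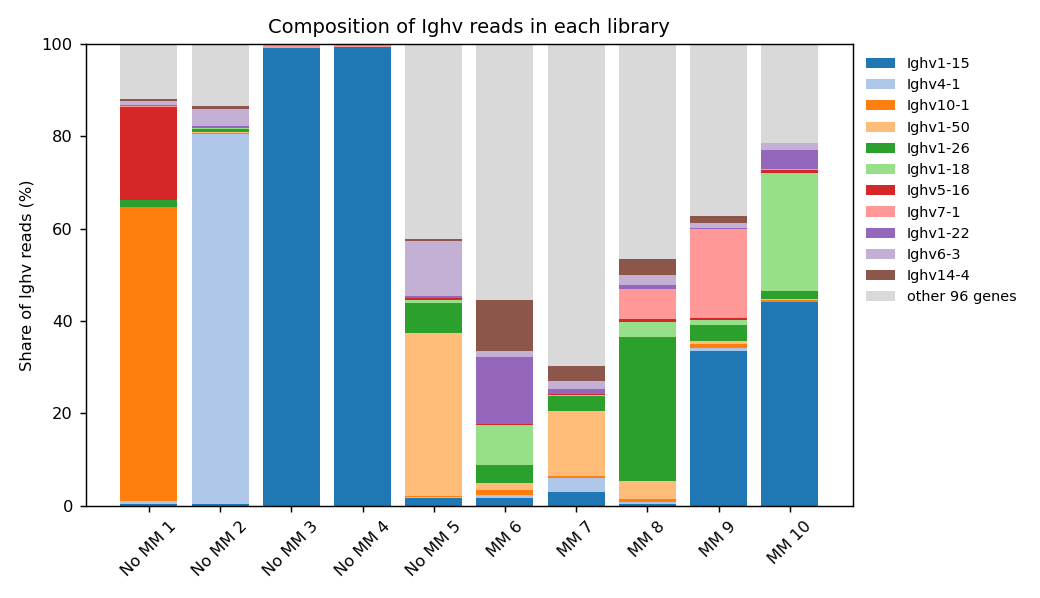
Share of Ighv reads, in percent, of each gene that reached 10% in any library, stacked for the 5 No MM and 5 MM libraries, with the other 96 genes in grey. Ighv1-15 fills 99.06% and 99.34% of the bars of No MM 3 and No MM 4, and 33.59% and 44.09% of those of MM 9 and MM 10.

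On average, the leading gene held 75.48% ± 26.99 (SD, n = 5) of the Ighv reads in No MM libraries and 27.47% ± 13.03 (SD, n = 5) in MM libraries, a difference of -48.0 percentage points (exact permutation test, two-sided, p = 0.0159, adjusted p = 0.0595 over 5 comparisons). The groups overlapped through No MM 5, whose 35.16% lay between MM 9 and MM 10. The difference was -32.2 points without No MM 3 and No MM 4 (exact permutation test, p = 0.0714, where 3 against 5 mice allow 0.0357 at the smallest). With families in place of genes it was -14.9 points (exact permutation test, p = 0.143).

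The effective number of genes, the inverse Simpson index, is the number of equally abundant genes that would give the same concentration. It was 2.24, 1.55, 1.02, 1.01 and 6.69 in No MM and 18.8, 22.7, 8.41, 6.35 and 3.80 in MM. MM 6 and MM 7 were the most even libraries, and No MM 5 lay above MM 9 and MM 10. The No MM mean was 2.50 ± 2.39 (SD, n = 5) and the MM mean 12.0 ± 8.26 (SD, n = 5), with a difference of 2.36 between the means of log2 values (exact permutation test, two-sided, p = 0.0238, adjusted p = 0.0595 over 5 comparisons). Without No MM 3 and No MM 4 the difference was 1.77 (exact permutation test, p = 0.107), and without each library's leading gene 1.68 (exact permutation test, p = 0.103).

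To reach 50% of the Ighv reads took 1 gene in No MM 1 to No MM 4 and 3 in No MM 5, against 8, 9, 4, 2 and 2 in MM 6 to MM 10. To reach 90% took 11, 8, 1, 1 and 31 genes in No MM and 40, 41, 31, 30 and 21 in MM. Apart from No MM 3 and No MM 4, the long tail was read in every library. Thinned to the 18037 Ighv reads of the smallest library, 83.6, 90.4, 22.5, 9.02 and 101 genes would be expected with a read in No MM, and 94.6 to 99.7 in MM. This difference of 35.4 genes did not pass the exact permutation test (two-sided, p = 0.0635, adjusted p = 0.0794). Without No MM 3 and No MM 4 it was 5.03 genes (exact permutation test, p = 0.286). Without thinning, 80 members had a read in No MM 3 and 64 in No MM 4, 93 to 101 in the other No MM libraries and 98 to 103 in MM. Every member had a read in some library, and 55 had one in all 10.

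**Figure D3:**
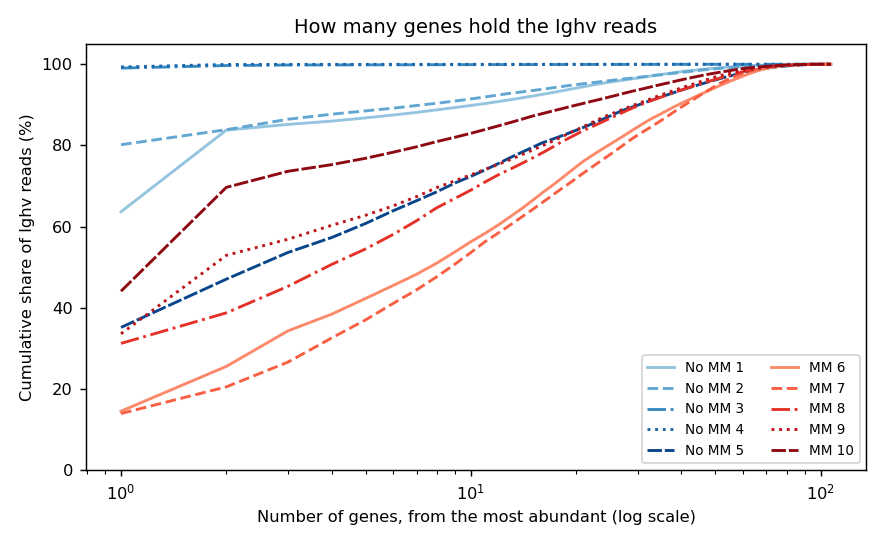
Cumulative share of Ighv reads, in percent, against the number of genes counted from the most abundant (log axis), with 1 line per library, No MM in blues and MM in reds. The lines of No MM 3 and No MM 4 start at 99.06% and 99.34%, whereas those of MM 6 and MM 7 start at 14.52% and 13.94% and need 40 and 41 genes to reach 90%.

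Ighv1-15 had 349, 476, 1048091, 1042847 and 297 reads in No MM and 431, 1420, 108, 11852 and 18023 reads in MM. In CPM it was at 33862.9 and 37848.8 in No MM 3 and No MM 4 and at 326.7 and 469.0 in MM 9 and MM 10. The other 6 libraries lay between 2.55 and 38.4 CPM. In both groups 2 libraries thus stood above the other 3, at levels that did not overlap between the groups. Its log2 fold change, MM over No MM, was -6.40 (SE 2.56, edgeR quasi-likelihood test with Benjamini-Hochberg adjustment over 16186 genes, adjusted p = 0.323). Without No MM 3 and No MM 4 it was 3.89 (edgeR, adjusted p = 0.644). The No MM median was 13.4 CPM and the MM median 38.4 CPM, in the opposite order to the means of 14349.1 and 169.5 CPM.

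The 4 libraries led by Ighv1-15 were also led by Igkv4-91 among the kappa light chain V genes, at 99.61% and 99.84% of Igkv reads in No MM 3 and No MM 4 and 28.23% and 47.74% in MM 9 and MM 10. Igkv4-91 held 0.303% to 8.25% in the other 6. Among heavy chain constant genes, Ighg2b (the IgG2b class) took 97.85% and 98.29% of reads in No MM 3 and No MM 4, 24.47% in MM 9 and 35.71% in MM 10, with 3.57% to 52.81% in the others. The highest of those others was No MM 1, led by Ighv10-1. Ighm, the constant gene of IgM, led in No MM 2, No MM 5, MM 6, MM 8, MM 9 and MM 10, and Igha led in MM 7. Ighd was not analysed here. Reads do not join a V gene to a constant or light chain gene here, so these shares are only side by side. Whether the Ighv1-15 reads of the 2 groups came from 1 lineage was not tested. All libraries were kept in the groups that the labels give. Whether the labels of these 4 libraries are right was not tested, and every comparison of MM with No MM rests on them.

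Ighv7-1 was the second gene in No MM 3, No MM 4 and MM 9. It had 142, 60, 6584, 6409 and 26 reads in No MM and 11, 54, 1842, 6820 and 174 reads in MM. Its germline sequence was 55.84% identical to that of Ighv1-15, and it shared no 76-base window with any member. Per 100 Ighv1-15 reads, there were 0.628 and 0.615 Ighv7-1 reads in No MM 3 and No MM 4, 57.5 in MM 9 and 0.965 in MM 10. This ratio was thus similar in No MM 3 and No MM 4, somewhat higher in MM 10 and far higher in MM 9. MM 8 had 43.5 CPM of Ighv7-1 beside 2.55 CPM of Ighv1-15. The log2 fold change of Ighv7-1 was -0.93 (SE 1.72, edgeR adjusted p = 0.825), and 4.19 without No MM 3 and No MM 4 (edgeR adjusted p = 0.644).

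No MM 3 and No MM 4 shared 99.72% of their Ighv composition, counted as the sum over genes of the smaller of both shares, and 72.66% with Ighv1-15 left out. With Ighv1-15 left out, Ighv7-1 alone held 66.12% of the remaining Ighv reads in No MM 3 and 92.03% in No MM 4. Most of the 72.66% was thus this gene. No MM 3 and No MM 4 were not one library counted again, since their counts over all genes differed by a chi-square of 106.6 per degree of freedom. The other 9 No MM pairs shared 0.514% to 16.6%, with a median of 1.84%, and the 10 MM pairs 27.45% to 56.04%, with a median of 39.7%. Pairs between the groups shared 1.05% to 52.91%. Every MM pair thus shared more than any No MM pair other than No MM 3 with No MM 4, which was not tested, since pairs that share a library are not independent.

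The other leaders were each high in 1 or 2 mice. Ighv10-1 was at 1841.3 CPM in No MM 1 and at 0.0726 to 8.35 CPM in the other 9 libraries. Ighv4-1 was at 2618.8 CPM in No MM 2 and at 0.0646 to 35.8 CPM elsewhere. Ighv5-16, second in No MM 1, was at 582.0 CPM there and at 0.0363 to 6.32 CPM elsewhere. The No MM medians of these 3 genes were 1.32, 1.05 and 1.45 CPM, below the MM medians of 6.73, 4.45 and 2.92 CPM. Their log2 fold changes were -5.93 (SE 2.28), -5.74 (SE 2.50) and -5.18 (SE 2.04), with edgeR adjusted p = 0.315, 0.343 and 0.317. These values turned to 1.72 (Ighv10-1) and 1.55 (Ighv5-16) without No MM 1 and to 1.32 (Ighv4-1) without No MM 2.

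Ighv1-50 led in 1 mouse of each group, at 155.4 CPM in No MM 5 and 173.9 CPM in MM 7, and lay between 0.0363 and 25.5 CPM in the other 8. Ighv1-26 was at 208.0 CPM in MM 8, and it lay between 1.38 and 40.4 CPM elsewhere. By median share over the 10 libraries Ighv1-26 ranked first at 2.40%, ahead of Ighv1-15 at 2.37%. Ighv1-22 was at 97.9 CPM in MM 6 and 42.1 CPM in MM 10 and at 0.254 to 12.7 CPM in the other 8. Ighv14-4 was at 16.1, 21.6, 7.30, 3.85 and 1.86 CPM in No MM and 74.4, 41.8, 23.8, 15.8 and 0.963 CPM in MM. Ighv6-3 was at 23.7, 120.9, 47.7, 0.109 and 52.6 CPM in No MM and 7.63 to 20.4 CPM in MM. All 5 of these genes overlapped between the groups.

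**Figure D4:**
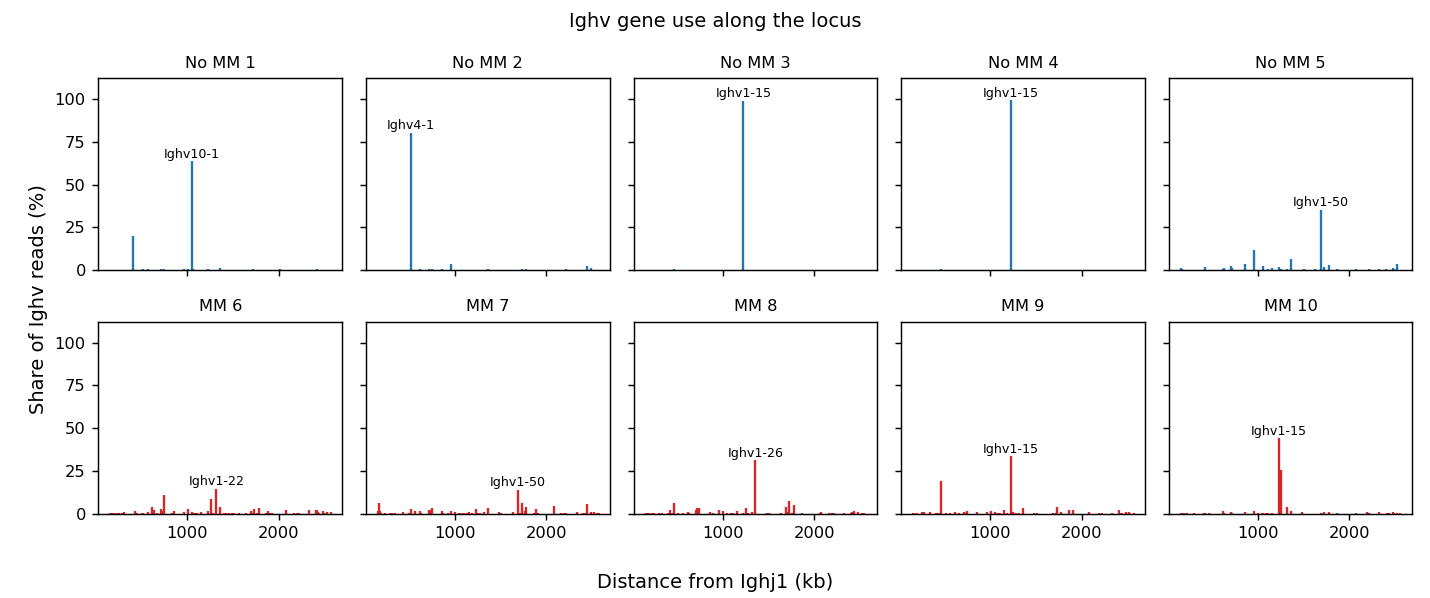
Share of Ighv reads, in percent, of each of the 107 genes against its distance from the joining gene Ighj1 in kb, with 1 panel per library and the leading gene named. The leaders sit at different places along the 2422.0 kb locus, from 518.4 kb (Ighv4-1, No MM 2) to 1689.9 kb (Ighv1-50, No MM 5 and MM 7).

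By position, the 36 genes nearest the J genes (148.7 to 870.1 kb from Ighj1) held 0.626% to 85.02% of the Ighv reads in No MM and 9.39% to 33.43% in MM. The 35 genes in the middle held 7.32% to 99.36% and 19.21% to 81.62%. The 36 farthest, up to 2570.2 kb away, held 0.0186% to 52.64% and 8.995% to 49.65%. None of the 3 blocks differed beyond the spread between mice (exact permutation tests, two-sided, p = 0.984, 0.50 and 0.318).

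By family, Ighv1, which holds 55 of the 107 genes, took 9.92%, 9.76%, 99.17%, 99.37% and 68.29% of Ighv reads in No MM and 59.56%, 61.34%, 67.06%, 61.11% and 87.17% in MM. In No MM, 2 mice lay below every MM mouse, 2 above and 1 among them. The difference of 9.95 points did not pass the exact permutation test (two-sided, p = 0.603), and it was 40.1 points with Ighv1-15 left out, an alternative chosen after seeing the data (exact permutation test, p = 0.0397). Without No MM 3 and No MM 4 it was 37.9 points (exact permutation test, p = 0.179). With Ighv1-15 left out, the Ighv1 share was 9.50%, 9.39%, 12.14%, 5.06% and 67.76% in No MM and 41.44% to 77.06% in MM. Ighv10-1 (No MM 1), Ighv4-1 (No MM 2) and Ighv7-1 (No MM 3 and No MM 4), all of other families, then held most of the reads. Ighv11, with 2 genes, was at 0.225%, 0.548%, 0.00265%, 0.00105% and 0.821% in No MM and 4.12%, 1.92%, 1.25%, 1.18% and 1.64% in MM. Every MM library lay above every No MM library for Ighv11 (exact permutation test, two-sided, p = 0.00794, the smallest possible, and 0.119 adjusted over 15 families). Ighv7 was at 0.160% to 1.34% in No MM and 0.675% to 19.61% in MM, with the same adjusted p = 0.119 by exact permutation tests. The other 13 families had adjusted p-values from 0.134 to 1 (exact permutation tests). A share falls in every other gene when 1 gene leads, so these family values move with the leading share.

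Single genes were then compared between the groups. After the filter on low counts, 77 members were tested, and the 30 others held 0.0772% of all Ighv reads. None of the 77 passed an adjusted p of 0.05 in edgeR in either direction (smallest adjusted p = 0.315), which in this comparison is the background share as well, 0% of 16186 genes in each direction. At an unadjusted p under 0.05, 16 members were higher in MM, 20.78% of those tested against 3.81% of all genes, and 4 were lower, 5.19% against 10.3%. In DESeq2, 4 members passed an adjusted p of 0.05, all higher in MM, where 0.176% of all genes did, and 0 passed as lower, where 0.998% did. DESeq2 gave 33 of the 107 members no adjusted p, so these could not pass. Among them were the named genes Ighv10-1, Ighv4-1, Ighv5-16 and Ighv1-50, with DESeq2 log2 fold changes of -5.90, -5.73, -5.15 and 0.42. Ighv1-15, at -6.36, had a DESeq2 adjusted p of 0.0549. At an unadjusted p under 0.05, DESeq2 placed 25 members above (background 4.31% of genes) and 5 members below (background 9.64%). The log2 fold change was above 0 for 60 of the 77 and below 0 for 17, where 47.3% of all tested genes were above 0. The median was 1.06 for the members and -0.03 over all tested genes. The filter kept members with enough reads in at least as many libraries as 1 group holds, whichever group these belong to. A member could thus pass through the libraries of 1 group alone, so these counts describe the tested members and not all 107. Without the filter, 21 of 107 were higher and 7 lower at an unadjusted p under 0.05, or 19.63% and 6.54% against 3.47% and 8.83% of all genes.

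The size of the fold changes, and the sign of some, moved with No MM 3 and No MM 4. Of the 77 tested members, 74 had their lowest CPM in one of these 2 libraries, a count that was not made over all genes. Without both, 9 of 84 tested members were higher, or 10.71% against 2.51% of all genes, and 6 were lower, or 7.14% against 3.37%, at an unadjusted p under 0.05, and edgeR called 0 after adjustment (smallest adjusted p = 0.644). The median log2 fold change of the members was then 0.46. Of the 77 members, 11 turned from higher to lower, 2 from lower to higher (Ighv1-15 and Ighv7-1), and 64 kept their sign. All 16 that had been higher at an unadjusted p under 0.05 were still higher, 8 of them at that p.

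**Figure D5:**
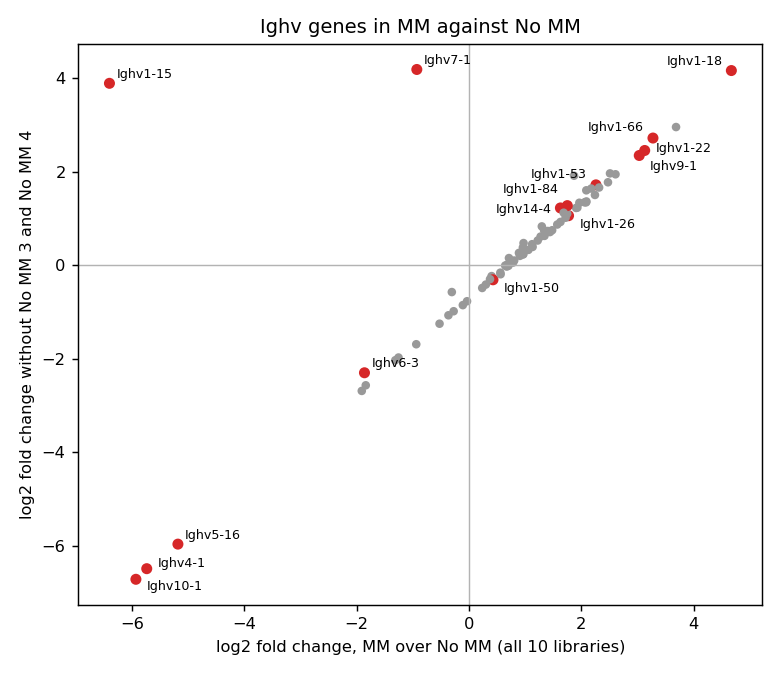
Fitted edgeR log2 fold change, MM over No MM, of the 77 tested Ighv genes with all 10 libraries (x axis) and without No MM 3 and No MM 4 (y axis), with the named genes in red. Ighv1-15 and Ighv7-1 lie in the upper left, where the sign turns from negative to positive, and Ighv1-18 and Ighv1-66 lie in the upper right in both fits.

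Ighv1-66 had 19, 18, 3, 3 and 10 reads in No MM and 110, 326, 90, 45 and 51 reads in MM. In CPM it was at 0.0969 to 0.724 in No MM and 1.24 to 8.81 in MM, so the groups did not overlap. Its log2 fold change was 3.28 (SE 0.74, edgeR adjusted p = 0.315; DESeq2 adjusted p = 0.00374), and 2.72 without No MM 3 and No MM 4, and 2.48 without MM 7. It was a rare gene in both groups, at most 0.706% of the Ighv reads (MM 7).

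Ighv9-1 was the other tested member with every MM library above every No MM library, which makes 2 of 77, or 2.60%, against 0.729% of all tested genes. No tested member had every MM library below every No MM library, where 0.680% of all tested genes did. Ighv9-1 had 4, 21, 1, 0 and 23 reads in No MM and 197, 60, 28, 102 and 47 reads in MM, with a log2 fold change of 3.03 (SE 0.90, edgeR adjusted p = 0.315; DESeq2 adjusted p = 0.0391).

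Ighv1-18 had 54, 262, 38, 24 and 115 reads in No MM and 2281, 147, 903, 418 and 10455 reads in MM. It was at 0.871 to 7.38 CPM in No MM and at 59.0, 3.97, 21.3, 11.5 and 272.0 CPM in MM, where only MM 7 fell within the No MM range. The log2 fold change was 4.67 (SE 1.15, edgeR adjusted p = 0.315; DESeq2 adjusted p = 0.00334). It was 4.16 without No MM 3 and No MM 4 and 3.06 without MM 10 (edgeR adjusted p = 0.535). Its closest relative was Ighv1-26 at 97.28% identity.

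Ighv1-53 was at 10.5, 15.9, 4.75, 1.09 and 9.46 CPM in No MM and 18.7, 82.0, 50.1, 38.6 and 10.4 CPM in MM, where MM 10 alone fell within the No MM range. Its log2 fold change was 2.26 (SE 0.68, edgeR adjusted p = 0.315; DESeq2 adjusted p = 0.0487). Ighv1-84, near the far end of the locus, was at 0.254 to 1.18 CPM in No MM and 0.750 to 3.97 CPM in MM, with a log2 fold change of 1.75 (SE 0.57, edgeR adjusted p = 0.315). The log2 fold change of Ighv1-22 was 3.13 (SE 1.13), with the same adjusted p from edgeR, and 2.11 without MM 6.

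The Ighv reads were also set against the other immunoglobulin reads of the same library. There were 41.2 to 69.5 Ighv reads per 100 Igkv reads and 13.9 to 23.5 per 100 heavy constant reads in the 10 libraries. Of the heavy constant genes, 7 of 8 listed were in the table and were tested, of which 1 was above and 2 below No MM in the myeloma-bearing mice at an unadjusted p under 0.05 and 0 after adjustment (edgeR). Their summed level was 3124.1 to 172347.6 CPM in No MM and 4697.7 to 8179.9 CPM in MM. The background for this and the next counts over all 10 libraries is 3.81% of all genes higher and 10.3% lower at that p. For counts without No MM 3 and No MM 4 it is 2.51% higher and 3.37% lower. All 10 plasma cell markers were lower at an unadjusted p under 0.05 and 0 after adjustment (edgeR), with a median log2 fold change of -2.04. Without No MM 3 and No MM 4, an alternative for the marker lists chosen after seeing the data, 1 of the 10 was lower at that p, the median was -0.41, and the other No MM libraries summed to 618.5 to 1167.6 CPM against 739.4 to 1309.4 CPM in MM. Over all 10 libraries, the median for B cell markers was 0.88, with 1 of 11 higher and 0 lower at that p (edgeR). For early B cell markers (Rag1, Dntt and others) it was 0.07, with 1 of 7 higher and 0 lower. Without No MM 3 and No MM 4 these medians were 0.37 and -0.65, with 1 higher and 0 lower in each list.

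Among 16 genes that join or mutate immunoglobulin genes, 0 were higher and 3 lower in MM at an unadjusted p under 0.05, where 3.81% and 10.3% of all genes were, and 0 passed adjustment (edgeR), with a summed level of 305.8 to 444.8 CPM in No MM and 225.8 to 342.9 CPM in MM. Without No MM 3 and No MM 4, 1 was higher and 1 lower at that p (edgeR), where 2.51% and 3.37% of all genes were. Rag1, which cuts the V, D and J segments, was at 0.194 CPM in No MM 3, 2.61 CPM in No MM 4 and 2.41 to 25.1 CPM in the other 8. Of 7 genes listed as regulators and receptor partners of B cells, 1 was lower and 0 higher at an unadjusted p under 0.05 (edgeR). The lower one was Igj, which is also among the plasma cell markers. Without No MM 3 and No MM 4, 0 of the 7 were higher and 0 lower. T cell markers summed to 30.7 to 85.6 CPM in No MM and 48.5 to 93.5 CPM in MM. Neutrophil markers, whose cells are abundant in marrow, were lowest in No MM 3 and No MM 4, at 6859.6 and 8063.4 CPM, and between 9813.4 and 31807.5 CPM in the other 8. The part of these marker levels in the Ighv differences was not tested.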

How the data were processed

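Counts of osteocyte RNA (TruSeq Stranded Total RNA, 76-bp paired ends) were analyzed for 5 No MM and 5 MM mice, grouped by the labels. The authors deposited read counts as whole numbers. The deposited signal is the authors' counts divided by a size factor, and the deposited FPKM values are the authors' counts per length and depth. The deposited log2 fold changes and p-values are the authors' own comparison. Of these, only the counts were used. The submitters' processing notes name FastQC 0.11.5 and STAR; the counting program, its settings and the build are not given in the sources used here.

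Counts were filtered with filterByExpr, scaled by TMM and tested with edgeR 4.0.16 (glmQLFit, glmQLFTest; R 4.3.3), adjusted over 16186 genes. DESeq2 1.42.0 was an alternative, next to RLE factors, no filter, library sizes without immunoglobulin genes, No MM 3 and No MM 4 left out, and each mouse left out. Single values per mouse were compared by exact permutation over 252 assignments (scipy 1.17.1, two-sided). Wilson intervals are at 95%; log2 CPM used a prior count of 2. A gene was named if it held at least 10% of a library's Ighv reads, was given with the members (Ighv1-15, Ighv1-18, Ighv1-66), or had one of the 5 smallest edgeR p-values in its direction. Ighv1-23 and the Ighv11 and Ighv7 families were singled out after their values were seen. Members and lists were chosen with earlier results of these data known. The depth, 31099174 to 39466332 reads per library, puts 3 counts at 0.0709 to 0.114 CPM. Some genes of the marker lists are not reported here by name.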

Additional observations from a re-analysis of the deposited data

Results flagged for a closer look

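Among 40 sets of 5 values (5 quantities and 15 named genes in each group), 2 had a mouse far from the other 4 of its group, and chance alone gives about 2. The Ighv1 family took 87.17% of the Ighv reads in MM 10, against 59.56% to 67.06% in the other 4 MM libraries, the gap being 0.729 of the range. In that library Ighv1-15 and Ighv1-18, both of this family, held 44.09% and 25.58%. Ighv6-3 was at -2.46 log2 CPM in No MM 4, from 3 reads, against 4.57 to 6.92 in the other 4 No MM libraries, a gap of 0.750 of the range.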

How the results depend on the processing

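No paired analysis was possible because No MM mice carry the numbers 1 to 5 in the labels and MM mice 6 to 10, without a number in common. The causes of the changes given here were not tested. The difference in summed Ighv level (-2.64 log2) was 0.56 (exact permutation test, p = 0.262) without the leading gene of each library, -0.14 without Ighv1-15, -0.84 without No MM 3 and No MM 4 (exact permutation test, p = 0.25) and -3.55 without No MM 5, and ran from -3.55 to -1.95 with each mouse left out in turn. The leading share (-48.0 points) was -14.9 by family and -32.2 without No MM 3 and No MM 4, and ran from -58.1 to -42.0 with single mice left out. The effective number (2.36 log2) was 0.53 by family, 1.68 without the leading genes and 1.77 without No MM 3 and No MM 4, and ran from 2.06 to 2.82. The Ighv1 share (9.95 points) was 40.1 without Ighv1-15 and 37.9 without No MM 3 and No MM 4 and ran from -1.94 to 20.5, turning to -1.90 without No MM 1 and to -1.94 without No MM 2. Genes at equal depth (35.4) were 5.03 apart without No MM 3 and No MM 4 (exact permutation test, p = 0.286) and ran from 22.3 to 45.3, the highest without No MM 5 (exact permutation test, p = 0.0159). EdgeR called 0 members under every alternative run, DESeq2 called 4 higher, and at an unadjusted p under 0.05 edgeR gave 16 higher and 4 lower. Alternatives that left out leading genes or Ighv1-15 were chosen after seeing the data. Fold changes that reversed without No MM 3 and No MM 4 were those of Ighv7-1 (4.19), Ighv1-15 (3.89) and Ighv1-50 (-0.31). Leaving out 1 mouse reversed Ighv1-50 (-1.48 without MM 7, range to 4.31), Ighv4-1 (1.32 without No MM 2, range from -7.28), Ighv5-16 (1.55, range from -5.58) and Ighv10-1 (1.72, range from -6.30, both turned without No MM 1). Named genes otherwise kept their direction under the alternatives run, and leaving out 1 mouse lowered Ighv1-18 to 3.06 (MM 10), Ighv1-22 to 2.11 (MM 6), Ighv1-26 to 0.61 (MM 8), Ighv14-4 to 1.02 (MM 6) and Ighv1-66 to 2.48 (MM 7). In No MM 3 and No MM 4, 27 and 43 members had 0 reads, which allows up to 0.0969 and 0.109 CPM.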
